A study of Rattus norvegicus with 29 samples.

Results

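The opioid system of the nucleus accumbens shell was read here from 14 of 31099 probe sets, those that the platform's gene table assigned to 8 genes by their exact symbol. The genes were the peptide precursors Penk, Pdyn, Pomc and Pnoc and the receptors Oprm1, Oprd1, Oprk1 and Oprl1. The tissue came from alcohol-preferring (P) rats, a line selectively bred for high voluntary drinking of ethanol, and was measured on Affymetrix rat arrays. P rats with continuous ethanol gave 10 arrays, P rats with access to limited ethanol gave 10, and P rats with no ethanol, labelled water only, gave 9. All groups share the P line, so no group shows the level in rats not bred for drinking. The design text names 10 samples per group, so that 1 water sample was not analysed here. The sources used here give no ethanol concentration, hours of access, sex or age, and do not state that each array held a separate animal. What the p-values measure is thus sample-to-sample spread, some of which may be technical.

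Opioid peptides are cut from larger precursors and act on G protein-coupled receptors that inhibit neurons. Proenkephalin (Penk) gives enkephalins, which act mainly on the delta (Oprd1) and mu (Oprm1) receptors, and prodynorphin (Pdyn) gives dynorphins, which act on the kappa receptor (Oprk1). Proopiomelanocortin (Pomc) gives beta-endorphin, made chiefly in the arcuate hypothalamus and the pituitary, and pronociceptin (Pnoc) gives nociceptin, the ligand of Oprl1. In the striatum Penk is a classical marker of medium spiny neurons of the indirect pathway, which carry the dopamine receptor Drd2, and Pdyn of those of the direct pathway, which carry Drd1. Ethanol drinking is reduced by antagonists of opioid receptors, which is why this system is studied in alcohol-preferring animals.

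The sequence just before the transcription start is shown for 2 peptide precursor genes, Pdyn, the source of dynorphins, and Pomc, the source of beta-endorphin. The promoter table of RefSeq (build GRCr8) held 4 of the 8 genes, and each window here is the 250 bases before the annotated start, 5′ to 3′ on the strand of the gene. Capitals mark TATAAA, the letters of the core promoter element named after them, which lay 13 to 8 bases before the start of Pdyn and 32 to 27 bases before that of Pomc. The table also held Oprm1 and Oprd1, whose windows had no TATAAA on either strand and are not shown.
Pdyn, chr3:137366504-137366753, minus strand: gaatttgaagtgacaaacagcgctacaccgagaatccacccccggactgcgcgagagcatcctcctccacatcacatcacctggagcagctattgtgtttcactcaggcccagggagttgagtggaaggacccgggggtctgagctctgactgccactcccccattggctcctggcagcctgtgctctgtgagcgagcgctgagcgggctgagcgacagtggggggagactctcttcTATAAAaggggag
Pomc, chr6:32659103-32659352, plus strand: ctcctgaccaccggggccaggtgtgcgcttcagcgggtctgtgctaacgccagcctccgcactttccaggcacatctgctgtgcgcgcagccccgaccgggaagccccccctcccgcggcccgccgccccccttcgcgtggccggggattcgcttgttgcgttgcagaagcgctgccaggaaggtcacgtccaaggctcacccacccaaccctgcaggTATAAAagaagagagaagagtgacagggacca
Of 33469 rat promoter windows of this length, 12.9% held TATAAA on either strand. The letters TGAGTCA, the site of the AP-1 factor formed by Fos and Jun proteins, were in neither window on either strand, and they were in 4.05% of all windows. The full cyclic AMP response element, TGACGTCA, and its shorter core, CGTCA, were also in neither window, and they were in 1.59% and 18.2% of all windows. These matches describe letters only and say nothing of the binding of a factor.

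Array values are log2 expression values from the RMA method, which makes the distributions of arrays nearly equal, so 1 unit is a doubling. Signal depends on the probes, so a brighter probe set of one gene does not show more transcript than a dimmer one of another. Tests were run on 21729 probe sets, after removal of the dimmest 30% (mean over all arrays up to 6.86). Of the 14 opioid probe sets 12 were tested, for 7 genes. The only Oprd1 probe set and 1 of the 2 for Oprm1 fell below that limit. The dimmest of the 3 Oprk1 probe sets lay just inside it, with a mean that also rounds to 6.86, and the next outside was Oprd1, with a mean of 6.19. Of 15 markers of medium spiny neurons 14 were on the array, and the dimmest was brighter than 70.5% of probe sets. Markers of cortical pyramidal neurons also gave signal (8 of 8 on the array were tested), so brightness does not tell this region from its neighbours. Medians of the arrays lay between 8.17 and 8.21, and 0 pairs of arrays were identical. A gap on the second principal component set 5 arrays apart, with scores of -22.2 to -15.6 where the others began at -3.30. Of these, 3 were water arrays (replicates 2, 5 and 6) and 2 limited arrays (replicates 6 and 7). Water replicate 2 was also the array with the lowest Penk, Pdyn and Oprk1 of its group, so the main differences of these genes are also given without it. In that array the marker scores, mean log2 deviations from all arrays, were the highest of the 29 for leptomeningeal (1.01) and for endothelial and mural cells (0.32), and 0.16 for microglia, against -0.45 for indirect pathway neurons. The part of these in its opioid values was not tested. In tissue pieces like these, fewer cells of a type and less RNA per cell cannot be told apart.

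Neither ethanol schedule was called different from water at any opioid gene. Continuous ethanol against water gave 0 of 12 tested opioid probe sets past an adjusted p of 0.05, where 0.152% of all tested probe sets passed. At an unadjusted p under 0.05 it was also 0 of 12, against 16.1% of all tested. Limited access against water gave 0 of 12, against 0% of all, and 0 of 12 against 4.44% at the unadjusted threshold. Limited against continuous access gave 0 of 12, against 0.0046% of all, and 1 of 12 against 9.31% at the unadjusted threshold. The test for any difference among the 3 groups called 0 of 12, against 0.0828% of all tested. There it was 0 of 12 against 11.6% at the unadjusted threshold. Adjusted p-values are from limma with the Benjamini-Hochberg method over all 21729 probe sets. Both comparisons with water share the same 9 water arrays.

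The enkephalin precursor Penk was read by 1 probe set, 1367949_at, which was brighter than 99.1% of probe sets. Its values ran from 13.32 over a median of 13.54 to 13.71 in water, from 13.38 over 13.55 to 13.71 with limited access and from 13.34 over 13.53 to 13.68 with continuous ethanol. The lowest value in water was replicate 2, whose nearest neighbour was at 13.52, and the 3 groups overlapped over nearly their whole ranges. Group means were 13.56 ± 0.11 (SD, n = 9) in water, 13.56 ± 0.11 (SD, n = 10) with limited and 13.52 ± 0.12 (SD, n = 10) with continuous access. The difference of continuous from water was -0.04 ± 0.05 (SE, adjusted p = 0.720), with a 95% confidence interval from -0.15 to 0.07, or 0.903 to 1.05 times the water level. Limited access differed from water by -0.00 ± 0.05 (adjusted p = 0.998, interval -0.11 to 0.10), and from continuous by 0.04 ± 0.05 (adjusted p = 0.839). Without water replicate 2 the differences from water were -0.07 with continuous and -0.03 with limited access.

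Prodynorphin was read by 2 probe sets that moved closely together across arrays. The brighter Pdyn probe set, 1383294_at, ran from 11.22 over a median of 12.09 to 12.32 in water, from 11.89 over 12 to 12.28 with limited and from 11.68 over 12.05 to 12.13 with continuous access. Water replicate 2 was the lowest of all arrays, and the next water array was at 12.01, so that 8 of 9 water arrays lay within the range of 12.01 to 12.32. The other probe set, 1369882_at, was lowest in the same array, at 7.80 with its nearest neighbour in water at 8.78. Among continuous arrays, replicate 7 was lowest on both, at 11.68 and 8.01. The correlation of both Pdyn probe sets over the 29 arrays, taken as deviations from the group means, was r = 0.93 (rho = 0.92), and r was 0.86 without water replicate 2. Continuous minus water was -0.05 ± 0.09 (SE, adjusted p = 0.838, interval -0.24 to 0.15) on the brighter probe set and -0.01 ± 0.13 (adjusted p = 0.972, interval -0.28 to 0.26) on the other. Without water replicate 2 these differences were -0.15 ± 0.07 (adjusted p = 0.345) and -0.14 ± 0.10 (adjusted p = 0.568). Limited minus water was 0.03 ± 0.09 (adjusted p = 0.991) and 0.14 ± 0.13 (adjusted p = 0.972), which became -0.07 and 0.02 without that array. The within-group SD of Pdyn was large for these arrays, 0.22 and 0.31 on the 2 probe sets, above that of 91.1% and 96.6% of tested probe sets, while that of Penk, 0.11, was near the median of 0.12. On the brighter Pdyn probe set the SD was 0.31 in water, which includes replicate 2, 0.14 with limited and 0.18 with continuous access. On the other it was 0.39, 0.17 and 0.33.

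Pomc and Pnoc, the precursors of beta-endorphin and nociceptin, were each read by 1 probe set. Pomc, on 1384612_at, ran from 7.24 over a median of 7.32 to 7.42 in water, from 7.11 over 7.22 to 7.60 with limited and from 7.03 over 7.24 to 7.41 with continuous access. Water arrays were tightly grouped, and 8 of 10 continuous and 9 of 10 limited arrays lay below the water mean, with ranges that overlapped. The differences from water were -0.08 ± 0.05 with continuous (SE, adjusted p = 0.434, interval -0.18 to 0.02) and -0.06 ± 0.05 with limited access (adjusted p = 0.972, interval -0.16 to 0.04). Limited replicate 6 was the highest array at 7.60, and without it the limited difference was -0.10. This probe set was brighter than only 36.0% of probe sets. Pnoc, on 1368369_at, ran from 8.01 over 8.44 to 8.74 in water, from 8.13 over 8.45 to 8.91 with limited and from 8.08 over 8.41 to 8.77 with continuous access. The 3 groups covered the same span. Differences of Pnoc from water were 0.05 ± 0.10 with continuous (adjusted p = 0.830) and 0.11 ± 0.10 with limited access (adjusted p = 0.972). With 1 array left out the continuous value ran from 0.00 (no water replicate 6) to 0.09 (no water replicate 7), and with the 5 arrays apart as a block it was -0.05.

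**Figure D1:**
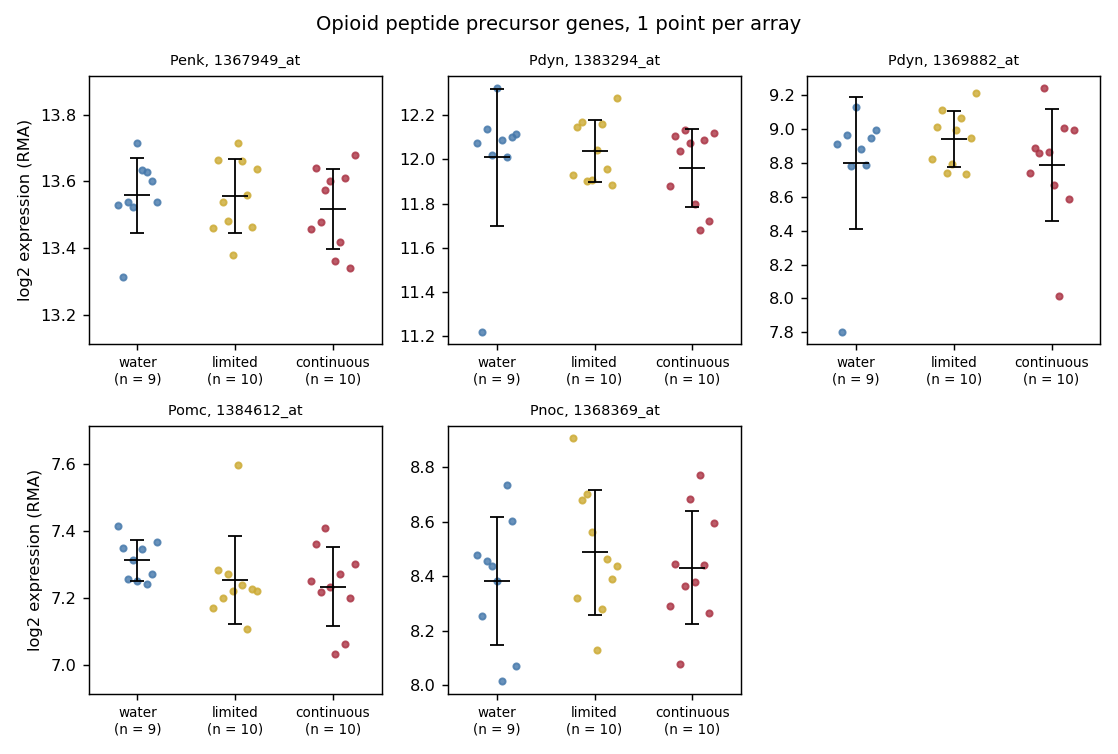
Log2 expression (RMA) of the 5 probe sets of the peptide precursor genes by group, with 1 point per array, a bar at the group mean and whiskers of 1 SD (n = 9 water, 10 limited, 10 continuous); the vertical axes differ. The groups overlap in every panel, and water replicate 2 lies low for Penk (13.32) and for both Pdyn probe sets (11.22 and 7.80).

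The mu receptor Oprm1, the main target of morphine and of beta-endorphin, and the delta receptor Oprd1 gave dim signals. The Oprm1 probe set that was tested, 1387461_at, ran from 6.69 over 7.01 to 7.10 in water, from 6.54 over 6.94 to 7.12 with limited and from 6.81 over 6.91 to 7.21 with continuous access. Its differences from water were -0.02 ± 0.06 with continuous (SE, adjusted p = 0.882, interval -0.15 to 0.11) and -0.04 ± 0.06 with limited access (adjusted p = 0.975, interval -0.17 to 0.09). The other Oprm1 probe set, 1369109_at, was brighter than only 1.73% of probe sets, with values from 4.53 to 4.99 over all arrays. Its r with the tested one was 0.21, with an adjusted permutation p of 0.327 over the 8 such pairs. Oprd1, on 1368791_at, ran from 6.0 over 6.17 to 6.40 in water, from 5.97 over 6.24 to 6.38 with limited and from 6.03 over 6.18 to 6.34 with continuous access. When the limit on dim probe sets was lifted, Oprd1 differed from water by 0.02 ± 0.05 with continuous (adjusted p = 0.872) and 0.05 ± 0.05 with limited access (adjusted p = 0.989). The dimmer Oprm1 probe set then differed by -0.04 ± 0.04 and 0.01 ± 0.04. None of these differences was called.

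The kappa receptor Oprk1, which binds dynorphins, showed the difference between the 2 ethanol schedules with the smallest unadjusted p of the opioid probe sets. Its brightest probe set, 1368197_at, ran from 8.11 over 8.83 to 9.10 in water, from 8.69 over 8.82 to 9.03 with limited and from 8.47 over 8.66 to 8.93 with continuous access. All 10 limited arrays lay above the continuous mean, although the ranges overlapped between 8.69 and 8.93. Limited minus continuous was 0.16 ± 0.08 (SE, p = 0.0620, adjusted p = 0.546, interval -0.01 to 0.33) in the fit by limma. On the dimmest Oprk1 probe set, 1368198_at, it was 0.19 ± 0.09 (p = 0.0395, adjusted p = 0.531, interval 0.01 to 0.36), with 9 of 10 limited arrays above the continuous mean. The third, 1387102_at, had 0.00 ± 0.09 (adjusted p = 0.998). Water replicate 2 is not in this comparison, but it enters the estimate of spread that the 3 groups share. Without it the values were 0.16 ± 0.06 on the brightest probe set and 0.19 ± 0.08 on 1368198_at (limma adjusted p = 0.513 each). With only the groups compared in the fit, the smallest p of an opioid probe set was 0.00830 (limma, smallest adjusted p = 0.455). With a covariate for RNA quality the value of 1368198_at was 0.09. Without the 5 arrays apart 1368198_at gave 0.12 and the brightest probe set 0.13. The 3 Oprk1 probe sets thus gave different values, and their pairwise r were 0.53, 0.33 and 0.24 (rho = 0.42, 0.22 and 0.32, adjusted permutation p of r = 0.00848, 0.0812 and 0.256). Against water, continuous ethanol gave -0.09 ± 0.08, -0.09 ± 0.09 and -0.15 ± 0.09 (adjusted p = 0.619, 0.647 and 0.409), all below 0 and none called. Without water replicate 2, in which the brightest probe set was 8.11 against 8.59 in the next array, that probe set gave -0.17 ± 0.06 (adjusted p = 0.273), and the others -0.13 and -0.19. Limited access against water gave 0.07 ± 0.08, -0.09 ± 0.09 and 0.04 ± 0.09 (adjusted p = 0.972, 0.972 and 0.983), so the 3 Oprk1 probe sets did not share a direction there. Without water replicate 2 these were -0.01, -0.13 and -0.00.

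The nociceptin receptor Oprl1 was read by 3 probe sets, all with positive differences from water in both ethanol groups and none called. The brightest, 1369646_at, ran from 8.50 over 8.87 to 9.03 in water, from 8.74 over 8.95 to 9.02 with limited and from 8.84 over 8.92 to 8.98 with continuous access. All 10 continuous arrays lay above the water mean of 8.84, yet within the water range, because water arrays were spread more widely (SD 0.17) than continuous arrays (SD 0.04). Continuous minus water was 0.09 ± 0.05 (SE, adjusted p = 0.406, interval -0.02 to 0.19), and limited minus water was 0.09 ± 0.05 (adjusted p = 0.972, interval -0.02 to 0.19). On 1369645_at the differences were 0.10 ± 0.06 and 0.13 ± 0.06, and on 1387661_a_at 0.03 ± 0.09 and 0.09 ± 0.09, in the same order (limma adjusted p from 0.436 to 0.972). Without water replicate 2 the continuous differences of the 3 probe sets were 0.07, 0.06 and -0.00. The lowest water arrays on the brightest probe set were replicates 6, 5 and 2, which are the water arrays that stood apart on the second component. Without the 5 arrays apart, the continuous differences of the 3 Oprl1 probe sets were -0.01, -0.02 and -0.03, and the limited ones 0.03, 0.05 and 0.08. The positive direction of Oprl1 in continuous ethanol was thus seen with those arrays and not without them.

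**Figure D2:**
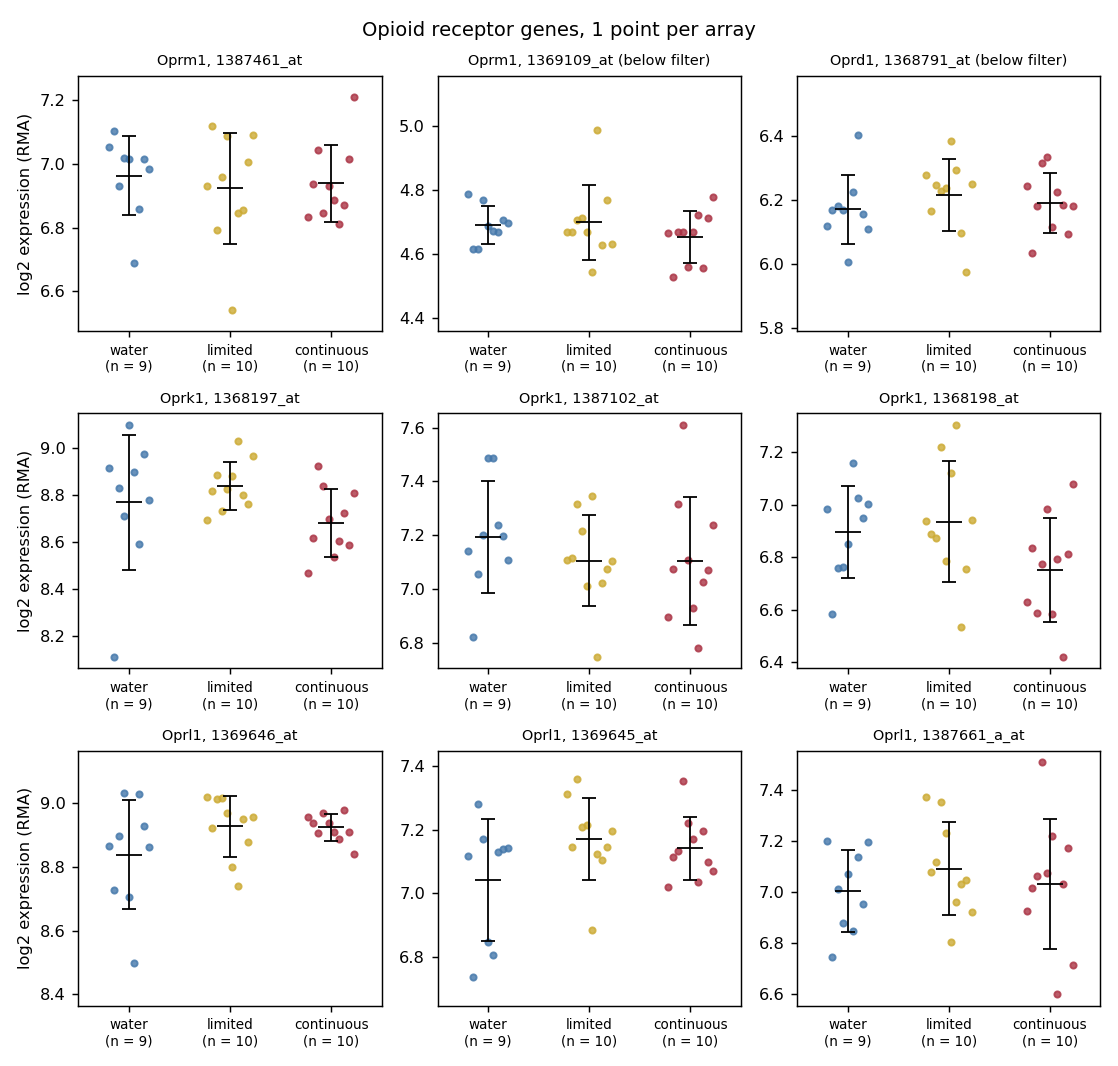
Log2 expression (RMA) of the 9 probe sets of the receptor genes by group, with 1 point per array, a bar at the group mean and whiskers of 1 SD (n = 9 water, 10 limited, 10 continuous); the vertical axes differ. Continuous arrays of Oprl1 1369646_at are narrow (SD 0.04), and Oprm1 1369109_at and Oprd1 lie below the limit on dim probe sets.

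Across the 12 tested probe sets the continuous minus water differences lay between -0.15 and 0.10, with a median of -0.03 against 0.00 for all tested probe sets, and 4 were positive and 8 negative. Limited minus water lay between -0.09 and 0.14, with a median of 0.05 (8 positive, 4 negative) against 0.00 over all tested. Limited minus continuous lay between -0.02 and 0.19, with a median of 0.05 against -0.01 over all tested. In that last comparison 11 of 12 were positive, but probe sets of 1 gene share a transcript and several genes moved together across arrays. The widest 95% intervals reached -0.33 for continuous minus water, 0.41 for limited minus water and 0.42 for limited minus continuous, so no confidence interval allowed a change of 1 unit, a doubling or halving.

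**Figure D3:**
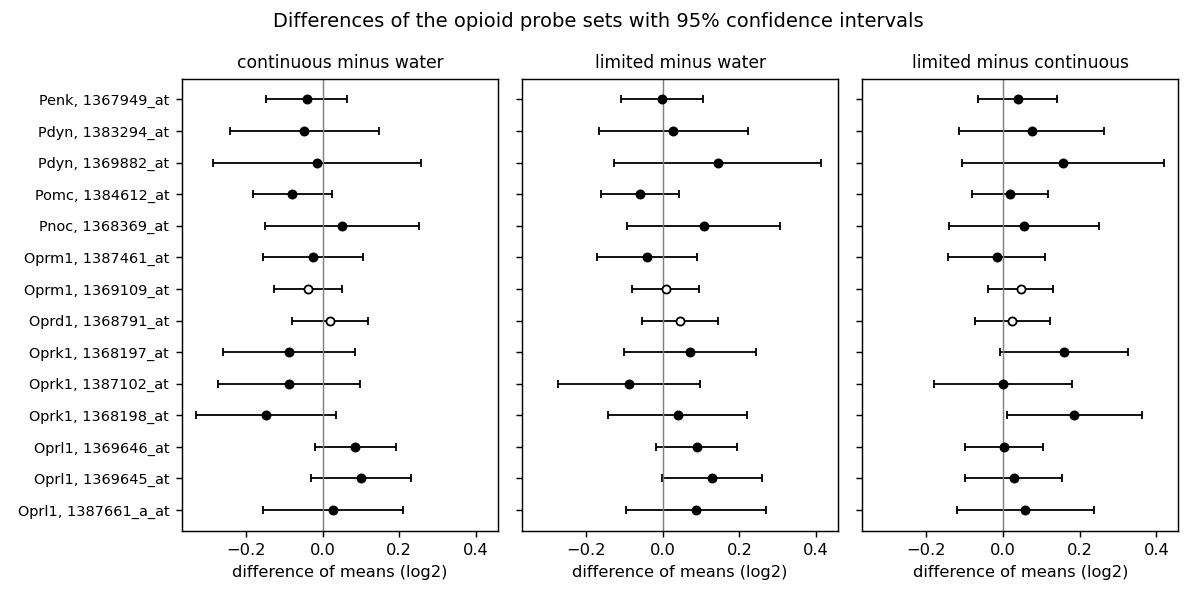
Difference of group means (log2) for each opioid probe set in the 3 comparisons, with 95% confidence intervals from limma; open points are the 2 probe sets below the limit on dim probe sets, taken from the fit without it. Every interval holds 0 except that of Oprk1 1368198_at for limited minus continuous, 0.01 to 0.36, before adjustment.

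Penk, Pdyn and Oprk1 varied together from array to array inside the groups. Deviations from the group means were correlated over the 29 arrays for the 21 pairs of the 7 tested genes, each on its brightest probe set, and 4 pairs passed after adjustment. Penk and Pdyn had r = 0.80 (rho = 0.80, permutation p = 1e-05 for each, the smallest the draws can give, adjusted p = 1.05e-04 and 2.10e-04). Their r was 0.78 without the 2 arrays farthest from the median of Penk, 0.82 without the 5 arrays apart, and 0.88, 0.71 and 0.90 within the water, limited and continuous groups. Pdyn and Oprk1, the dynorphin precursor and its receptor, had r = 0.86 (rho = 0.72, permutation p = 1e-05 and 3e-05, adjusted p = 1.05e-04 and 3.15e-04). That r was 0.71 without the 2 farthest arrays and 0.64 without the 5 arrays apart. Penk and Oprk1 had r = 0.63 (rho = 0.55, permutation p = 5e-04 and 0.00217, adjusted p = 0.0035 and 0.0114). It was 0.47 without the 2 farthest arrays, which has no p here, and 0.38 without the 5 apart (permutation adjusted p = 0.309, with rho 0.50 and 0.132). Pnoc and its receptor Oprl1 had r = 0.59 (rho = 0.61, permutation p = 0.00105 and 9.2e-04, adjusted p = 0.00551 and 0.00644), with 0.74 and 0.85 within water and limited arrays and -0.26 within continuous arrays. It was 0.47 without the 2 farthest arrays and 0.38 without the 5 apart (permutation adjusted p = 0.309, with rho 0.40 and 0.281). The remaining 17 pairs did not pass, among them Penk and Oprm1 (r = -0.21, adjusted p = 0.599 by permutation). Penk could not be set against Oprd1, its other main receptor, which was not among the tested probe sets.

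The marker scores whose relation to these genes passed were those of medium spiny neurons. The markers of each cell type were summarised per array as their mean deviation, and 84 relations with the 7 genes were computed, of which 10 passed. Of these, 9 joined Penk, Pdyn or Oprk1 to the 3 lists of medium spiny neuron markers. The score of the indirect pathway, from Drd2, the adenosine receptor Adora2a and Gpr6, had r = 0.81 with Penk, 0.93 with Pdyn and 0.82 with Oprk1 (rho = 0.81, 0.80 and 0.75, permutation adjusted p from 2.8e-04 to 6.3e-04). Without its 2 farthest arrays, water replicate 2 and continuous replicate 7, these were 0.77, 0.84 and 0.69, and without the 5 arrays apart 0.71, 0.89 and 0.59. The score of the direct pathway, from 7 markers that include Drd1 and the substance P precursor Tac1, had r = 0.55 with Penk, 0.65 with Pdyn and 0.65 with Oprk1 (rho = 0.56, 0.67 and 0.66, permutation adjusted p of r from 0.00288 to 0.0262). Without its 2 farthest arrays, limited replicate 10 and water replicate 5, these were 0.48, 0.57 and 0.59, and without the 5 arrays apart 0.65, 0.60 and 0.59. Pdyn, a direct pathway marker by its background, thus had a higher r with the indirect than with the direct score, and the difference between these correlations was not tested. The general medium spiny score gave 0.70, 0.78 and 0.65. The other relation that passed joined Pnoc to markers of striatal interneurons such as Chat, Sst and Npy (r = 0.57, rho = 0.64, permutation adjusted p = 0.0143 and 0.00392). It was 0.61 without the 2 farthest arrays. In this score Chat and Slc5a7 varied more over all arrays (SD 0.35 and 0.39) than Sst and Npy (SD 0.14 and 0.12). The relation of Pnoc to each of these markers was not tested apart. The leptomeningeal score had r = -0.28, -0.48 and -0.47 with Penk, Pdyn and Oprk1 (permutation adjusted p = 0.427, 0.05025 and 0.0569). The endothelial and mural score had r = -0.11, -0.48 and -0.56 with them (permutation adjusted p = 0.836, 0.205 and 0.0783). None of these passed. Without water replicate 2 they were -0.14, -0.34 and -0.32, and 0.22, -0.03 and -0.23. All these points share the normalization of their array.

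**Figure D4:**
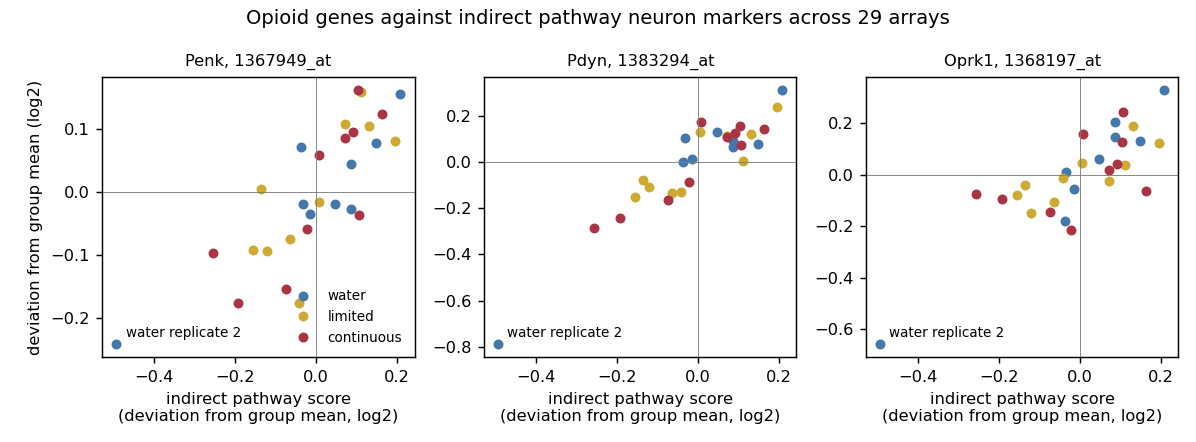
Deviation from the group mean (log2) of Penk, Pdyn and Oprk1 in each of 29 arrays against the mean deviation of the indirect pathway markers Drd2, Adora2a and Gpr6 in the same array, coloured by group; the vertical axes differ. The 3 groups lie along 1 band (r = 0.81, 0.93 and 0.82), and water replicate 2 lies farthest to the lower left.

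The indirect pathway score had a mean of 0.04 ± 0.20 (SD) in water arrays, 0.01 ± 0.12 in limited and -0.05 ± 0.14 in continuous arrays, with ranges from -0.45 to 0.25, -0.14 to 0.21 and -0.31 to 0.11. Water replicate 2 was at -0.45 and continuous replicate 7 at -0.31, the same arrays in which Pdyn was lowest. With this score as a covariate, a setting added after the data were seen, continuous minus water was 0.01 ± 0.04 for Penk, 0.07 ± 0.04 and 0.14 ± 0.07 for the 2 Pdyn probe sets and 0.00 ± 0.05 for Oprk1 on its brightest probe set (limma adjusted p = 0.886, 0.401, 0.356 and 0.977). In the same fit limited minus water was 0.02 ± 0.03 for Penk, 0.07 ± 0.04 and 0.19 ± 0.07 for Pdyn and 0.10 ± 0.05 for Oprk1 (limma adjusted p = 0.965, 0.907, 0.815 and 0.881). The second Pdyn value had the smallest unadjusted p of the opioid probe sets there, 0.0120. Limited minus continuous was -0.01 and 0.05 for the 2 Pdyn probe sets, against 0.07 and 0.16 without the covariate. For Oprk1 it was 0.10 on the brightest probe set, against 0.16 without the covariate. On 1368198_at and 1387102_at it was 0.15 and -0.04, against 0.19 and 0.00. The SE of Penk was 0.05 without the covariate and that of Pdyn 0.09 and 0.13. The score comes from the same arrays and had r = 0.93 with Pdyn. The covariate fit thus cannot tell cell content from expression per cell, and the part of these markers in the group differences was not tested.

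The genes whose pattern was most like each opioid gene were found over the 29 arrays by the same deviations, and their r values are descriptions without a test. For Penk they were Rem2 (r = 0.87), Drd2 (0.84) and Pdyn (0.80). Drd2 is the dopamine receptor of the neurons that also make Penk. For Pdyn they were Gpr6 (r = 0.91), Adora2a (0.90) and Syndig1 (0.89), and for Oprk1 they were Syndig1 (r = 0.87), Gpr6 (0.87) and Pdyn (0.86). Without water replicate 2, Gpr6 had r = 0.86 with Pdyn and 0.76 with Oprk1. For Pnoc they were Zfhx4 (r = 0.77), Rab9b (0.76) and Fbxl17l1 (0.75), and for Oprl1 Tmem150c (r = 0.84), Zmat3 (0.83) and Rab21 (0.82). Without the 5 arrays apart the values for Oprl1 were 0.40, 0.60 and 0.29. For Oprm1 they were Becn1 (r = 0.69), Paqr9 (0.66) and the glucocorticoid receptor Nr3c1 (0.66), and for Pomc Ces5a (r = 0.75), Ptges2 (0.73) and C1h16orf54 (0.73). The r of Nr3c1 was 0.31 without those 5 arrays.

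Around the receptors and peptides, 89 genes of opioid peptide handling and signalling were listed, and 79 had a tested probe set, each gene taken on its brightest. In continuous ethanol against water 2 of the 79 rose, 0 fell and 77 did not pass, while 18 had an unadjusted p below 0.05, where all tested probe sets had 0.152% called and 16.1% below that p. Both that rose belong to the transcription factors described as acting on opioid peptide genes (2 of 16, list median 0.05 against 0.00 over all tested). The lists were chosen with earlier results of these data known, so these counts are descriptions and no independent support. Fos, a subunit of AP-1, rose from 10.26 ± 0.27 (SD) to 11.04 ± 0.27, by 0.79 ± 0.12 (SE, adjusted p = 0.00120, 10 of 10 arrays above the water mean), and Junb, another AP-1 subunit, rose by 0.34 ± 0.06 (adjusted p = 0.00506, 10 of 10). Penk and Pdyn, whose intervals are given above, were not called in the same arrays.

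None of the other lists had a member past the threshold with continuous ethanol. Of 16 genes that process and pack peptides, such as convertases and granins, 0 passed (median 0.03), with the granin Scg2 at 0.17 ± 0.06 and Qpct, which forms pyroglutamate ends, at 0.29 ± 0.12 (adjusted p = 0.179 and 0.227). Of 10 peptidases that degrade peptides 0 passed (median -0.02), with the endothelin-converting enzyme Ece1 at -0.14 ± 0.05 and Mme, the enkephalin-cleaving neprilysin, at -0.16 ± 0.07 (adjusted p = 0.173 and 0.269). In the same comparison 2 of 10 endothelial and mural markers fell, and their score was 0.08 ± 0.10 (SD, range -0.01 to 0.32) in water and -0.07 ± 0.07 (range -0.20 to 0.04) in continuous arrays. Their part in the list values was not tested. Of 19 genes for inhibitory G proteins and their effectors 0 passed (median 0.01), with Gng7 at -0.16 ± 0.06 and Gnai1 at 0.16 ± 0.06 (adjusted p = 0.198 and 0.217). Of 18 genes of receptor desensitisation and trafficking 0 passed (median 0.00), with Rgs9, which shortens G protein signals in medium spiny neurons, at -0.20 ± 0.06 and Gpm6a at 0.15 ± 0.06 (adjusted p = 0.150 and 0.196). Gng7 and Rgs9 are also in the list of medium spiny neuron markers, whose score was 0.03 ± 0.09 (SD) in water and -0.03 ± 0.11 in continuous arrays. The median over all tested probe sets was 0.00.

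With limited access against water 0 of the 79 passed and 8 had an unadjusted p below 0.05, where 4.44% of all tested had, around a median of 0.01 against 0.00 over all tested. The smallest p-values per list belonged to Junb (0.28 ± 0.06, adjusted p = 0.316) and Fos (0.45 ± 0.12, adjusted p = 0.928), and to the granins Chga (0.09 ± 0.03) and Scg2 (0.11 ± 0.06). They were joined by the angiotensin-converting enzyme Ace (0.20 ± 0.06) and the aminopeptidase Npepps (-0.06 ± 0.03). Gng3 (0.09 ± 0.03) and Gnao1 (0.18 ± 0.09), subunits of G proteins, and Rgs9 (-0.14 ± 0.06) and Rgs17 (0.13 ± 0.06), which shorten their signals, completed them. The adjusted p of these 8 genes after Junb and Fos lay between 0.971 and 0.972. Ace, which can also cleave enkephalins, was higher in 10 of 10 limited arrays than the water mean.

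With limited against continuous access 0 of the 79 passed and 7 had an unadjusted p below 0.05, a share near the 9.31% of all tested, around a median of -0.00 against -0.01 over all tested. Ace differed by 0.21 ± 0.06 and Ece1 by 0.12 ± 0.05 (SE, adjusted p = 0.526 each), both above the continuous mean in 10 of 10 limited arrays. The endothelial and mural score was 0.00 ± 0.07 (SD) in limited and -0.07 ± 0.07 in continuous arrays. Its part in the Ace and Ece1 values was not tested. Fos differed by -0.34 ± 0.12 (adjusted p = 0.526) and Jun by -0.11 ± 0.05 (adjusted p = 0.536). The carboxypeptidase Cpe, which trims peptide ends in secretory granules, differed by -0.07 ± 0.03 and the convertase Pcsk6 by -0.07 ± 0.04. Gng3 differed by 0.07 ± 0.03, the adenylyl cyclase Adcy8 by -0.16 ± 0.08, Gpm6a by -0.13 ± 0.05 and the interferon-responsive receptor chaperone Rtp4 by -0.25 ± 0.14. Their adjusted p-values in limma lay between 0.526 and 0.616.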

How the data were processed

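The deposited values are log2 expression values that the authors made with RMA, per the submitters' processing notes; software and version: not given in the sources used here. Values of 4.04 to 16.0 show the log scale. RNA was extracted with Trizol and purified on RNeasy columns, per the labels' protocols. Groups came from the titles. Probe sets were named from the platform's table, and symbols in lists were updated through gene IDs with RefSeq's table for GRCr8. After leaving out 57 control probe sets and the dimmest 30% by mean over all arrays, 1 model with group as factor was fitted to 29 arrays with lmFit and eBayes of limma 3.58.1 in R 4.3.3, two-sided, with Benjamini-Hochberg adjustment over 21729 probe sets and a threshold of 0.05. The fit was checked on simulated data. Correlations used deviations from group means, two-sided permutation p-values from 100000 shuffles of arrays within groups, and adjustment over 21 or 84 relations (Python 3.11.15, NumPy 2.4.6, SciPy 1.17.1).

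The opioid genes and the lists were chosen with earlier results of these data known. Named genes were all opioid probe sets, the 3 genes most like each, and in each list those past the threshold and the 2 of smallest p per comparison. Alternatives were no filter, a 50% filter, repeated quantile normalization, median centring, a trended and robust prior, weights per array, a block for the replicate number, covariates for RNA quality and for medium spiny markers, only the groups compared, no water replicate 9 and each array left out. Leaving out or blocking 5 arrays, leaving out water replicate 2 in the correlations and the indirect pathway covariate were chosen after seeing the data, as were the correlations between probe sets of 1 gene.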

Additional observations from a re-analysis of the deposited data

Results flagged for a closer look

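In 42 sets of values, 1 for each opioid probe set and group, 6 held an array far from the others by Dixon's criterion, where chance gives about 1 in 20. The sets share arrays, and Penk and both Pdyn probe sets moved together, so the 6 are not separate events. Water replicate 2 was low for Penk 1367949_at (13.32, next 13.52), Pdyn 1383294_at (11.22, next 12.01) and Pdyn 1369882_at (7.80, next 8.78). Limited replicate 6 was high for Pomc 1384612_at (7.60, next 7.29) and low for Oprl1 1369645_at (6.88, next 7.11). Limited replicate 7 was high for the dim Oprm1 1369109_at (4.99, next 4.77). Both limited arrays and water replicate 2 are among the 5 arrays that stood apart on the second component. In water replicate 2 the scores of indirect pathway, medium spiny and interneuron markers were -0.45, -0.14 and -0.50, and those of leptomeningeal, endothelial and mural, and microglial markers 1.01, 0.32 and 0.16. The part of these markers in the low opioid values was not tested.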

How the results depend on the processing

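The count of opioid probe sets called was 0 in each comparison under all 13 alternatives and all 29 fits that left out 1 array (lowest and highest count 0), with a smallest adjusted p of 0.230. With the 50% filter 6 opioid probe sets were tested. The replicate block called 0 in each comparison as well. Deviations of same-numbered arrays had r above 0.1 in 12 of 28 pairs (median 0.08). For different numbers it was 65 of 252 pairs (median -0.01). For 2 of 29 arrays the most alike array of another group had the same number. The numbers were not taken as pairs in the main fit. Of 1500 differences under other settings 81 changed sign, none with a call. Many of the 1500 could not change sign. Another filter or prior, or leaving out an array of the third group, keeps the difference of means as it was. Over all tested probe sets the count for continuous minus water was 33, against 56 with the medium spiny covariate, 12 without the 5 arrays apart, 14 with them as a block and 18 to 94 with 1 array left out (water replicate 5 gave 18, water replicate 8 gave 59, limited replicate 6 gave 66 and water replicate 4 gave 94). For limited minus continuous it was 1, against 0 with the replicate block, both medium spiny covariates, the RNA quality covariate and both treatments of the 5 arrays, and 0 to 3 with 1 array left out. For limited minus water it was 0, against 1 with array weights. For the test of any difference it was 18, against 12 without the 5 arrays and 10 to 22 with 1 array left out (10 without continuous replicate 8 or water replicate 6, 11 without continuous replicate 3 or water replicate 5). Of the 4 correlated pairs of opioid genes 2 passed without the 5 arrays apart, where Penk with Oprk1 and Pnoc with Oprl1 both had r = 0.38, from 24 arrays. Fos and Junb passed for continuous minus water in all of these fits (largest adjusted p 0.00879 and 0.0161). The number of arrays limits the precision, and no background level was at hand for the dim probe sets (Oprd1, both of Oprm1, Pomc, the 2 dimmer of Oprk1 and of Oprl1).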
